A study of Mus musculus with 54 samples.

Results

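*Pgr*, *Runx1*, *Runx2*, *Cebpa*, *Cebpb*, *Rora*, *Bhlhe40*, *Gata6* and *Nrip1* were followed as the luteinizing transcription factors, taken by gene symbol and not by a threshold on their values. All 9 were found among the 25149 genes in the tables of counts and TPM. They were measured in 54 RNA-seq libraries, each from one microdissected side of a mouse follicle. Follicles of CD-1 mice aged 14 to 16 days were grown for 8 days in alginate and then kept for 12 h in maturation medium, which contained FBS, EGF and recombinant FSH in every group. In the medium without hCG, an analog of luteinizing hormone (LH), there were 15 libraries of the putative unruptured and 14 of the putative ruptured side. Post-hCG, that is with hCG added to the same medium, there were 12 of the unruptured and 13 of the ruptured side. No genetic modification was stated for any group. The follicles were cultured without ovarian stroma, blood supply or circulating immune cells, and the side that would rupture was predicted from morphology in the groups without hCG.

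The LH surge stops the growth of the follicle and turns its granulosa cells, which until then make estradiol, into luteal cells that make progesterone. Transcription factors carry this change: the surge acts through cAMP and ERK signaling on a first set of factors, and these in turn control the genes of rupture, of expansion of the cumulus around the oocyte and of steroid synthesis. PGR, the progesterone receptor, is needed for rupture. RUNX1 and RUNX2 bind DNA together with the partner CBFB and are induced in granulosa cells by the surge. CEBPA and CEBPB act downstream of ERK signaling in luteinization. RORA is an orphan nuclear receptor that activates the clock gene *Arntl*, and BHLHE40 is a repressor that also acts on the clock. GATA6 works with GATA4 on steroidogenic genes, and NRIP1 is a coregulator of nuclear receptors without which ovulation fails.

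RefSeq promoters of GRCm38.p6 were taken for 7 of the 9 genes, in 9 windows. The 250 bases before each start were searched on both strands for TGACG, the core of the cAMP response element, for GGGCGG, a GC box, for CCAAT and for TGTGGT, the RUNX core. Of 32851 such windows in the table, 17.8% held TGACG, 32.7% GGGCGG, 33.8% CCAAT and 14.0% TGTGGT. 3 windows are shown, which differ in the motifs they held: *Cebpb* held the most, *Runx1* held CCAAT, and *Rora* held none. None of these windows overlaps an exon of the GENCODE annotation, and that of *Runx1* lies inside the gene, before an inner RefSeq start. Capitals mark the letters searched, on either strand:
Rora, chr9:68653536-68653785, plus strand: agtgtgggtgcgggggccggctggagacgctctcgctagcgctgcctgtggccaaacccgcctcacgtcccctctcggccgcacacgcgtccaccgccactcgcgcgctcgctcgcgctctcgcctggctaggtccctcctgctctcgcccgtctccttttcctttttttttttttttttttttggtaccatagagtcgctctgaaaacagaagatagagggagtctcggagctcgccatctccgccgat
Runx1, chr16:92697330-92697579, minus strand: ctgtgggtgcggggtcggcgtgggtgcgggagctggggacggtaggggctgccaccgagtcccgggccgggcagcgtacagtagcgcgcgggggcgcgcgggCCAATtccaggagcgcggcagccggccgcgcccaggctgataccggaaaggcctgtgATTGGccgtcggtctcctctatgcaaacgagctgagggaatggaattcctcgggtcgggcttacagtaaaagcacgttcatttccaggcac
Cebpb, chr2:167688665-167688914, plus strand: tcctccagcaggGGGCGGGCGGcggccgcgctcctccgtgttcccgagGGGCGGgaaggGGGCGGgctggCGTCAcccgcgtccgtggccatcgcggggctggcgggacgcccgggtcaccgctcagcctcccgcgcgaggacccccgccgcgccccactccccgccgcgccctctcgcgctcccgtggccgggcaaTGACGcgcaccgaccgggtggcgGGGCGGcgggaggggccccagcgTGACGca

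The *Cebpb* window held TGACG 3 times, at 180, 53 and 7 bases before the start, and GGGCGG 5 times, 2 of them overlapping. Its GC content was 81.6%, against a median of 52.4% over all windows. The *Runx1* window shown held CCAAT 2 times, at 148 and 91 bases before the start, and the *Rora* window held none of the 4 motifs. Of the windows not shown, that of *Runx2* held 1 TGTGGT at 80 bases before the start, that of *Pgr* 1 GGGCGG and 1 CCAAT, 1 of the 2 of *Nrip1* held 2 overlapping GGGCGG, and the outer *Runx1* window held 2 CCAAT. The *Cebpa* window held none. *Bhlhe40* had no window. *Gata6* was left out when the windows were selected, so its promoter was not searched. A match of these letters is a description of the window and not a binding site.

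Totals ranged from 1497071 to 2834734 counts per library (median 2157092), and no library repeated another within sampling noise. By its label the tissue was the cumulus-oocyte complex, but the study describes follicle sides from which that complex had been taken out. Summed oocyte markers had medians of 0.08 TPM or less in each group, but reached 149 TPM on the putative unruptured and 23.0 TPM on the putative ruptured side without hCG, against 7.39 and 0.2 TPM post-hCG. Summed cumulus markers had medians of 5.23 to 17.3 TPM and reached at most 97.6 TPM, on the putative ruptured side without hCG. The granulosa markers *Fshr* and *Foxl2* were detected in all libraries except 1 of the putative unruptured side for *Fshr*. The labels do not say which sides came from one follicle, so p-values measure the spread between libraries, which may in part be technical. Each library label also carries a letter whose meaning is not stated: F and G on the putative unruptured side, G and H on the putative ruptured side, B and C on the unruptured side, C and D on the ruptured side. Letter and medium therefore cannot be told apart, and sides could be compared within letters G and C only. In such bulk libraries, fewer cells of a type and less RNA per cell cannot be told apart.

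The genes lie on 7 chromosomes of GRCm38. *Runx2* spans chr17:44495987-44814797 on the minus strand, *Runx1* chr16:92601466-92826149 (minus), *Nrip1* chr16:76287400-76373827 (minus) and *Rora* chr9:68653786-69388246 (plus). *Pgr* spans chr9:8899833-8968611 (plus), *Cebpa* chr7:35119293-35121928 (plus), *Cebpb* chr2:167688915-167690418 (plus), *Bhlhe40* chr6:108660629-108666925 (plus) and *Gata6* chr18:11052064-11085635 (plus). Levels are given in TPM, which is scaled by transcript length and so can be compared between genes. Without hCG, *Bhlhe40* was the most abundant of the 9, with medians of 49.2 TPM on the putative unruptured side and 44.4 TPM on the putative ruptured side. *Runx1*, *Runx2*, *Nrip1*, *Gata6* and *Rora* followed with medians between 5.22 and 10.7 TPM on either side, and *Cebpa*, *Cebpb* and *Pgr* had medians below 0.6 TPM. Post-hCG, the order was *Runx2*, *Bhlhe40*, *Rora* and *Runx1* on both sides, all with medians above 48 TPM, and then *Nrip1*, *Gata6*, *Cebpa*, *Cebpb* and *Pgr*. Neighbours in this order often overlapped in their ranges: post-hCG the ranges of *Nrip1* and *Gata6* crossed on both sides, as did those of *Cebpa* and *Cebpb*, whereas *Runx2* and *Bhlhe40* were separate on the ruptured side, and on the unruptured side overlapped between 142 and 155 TPM.

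**Figure D1:**
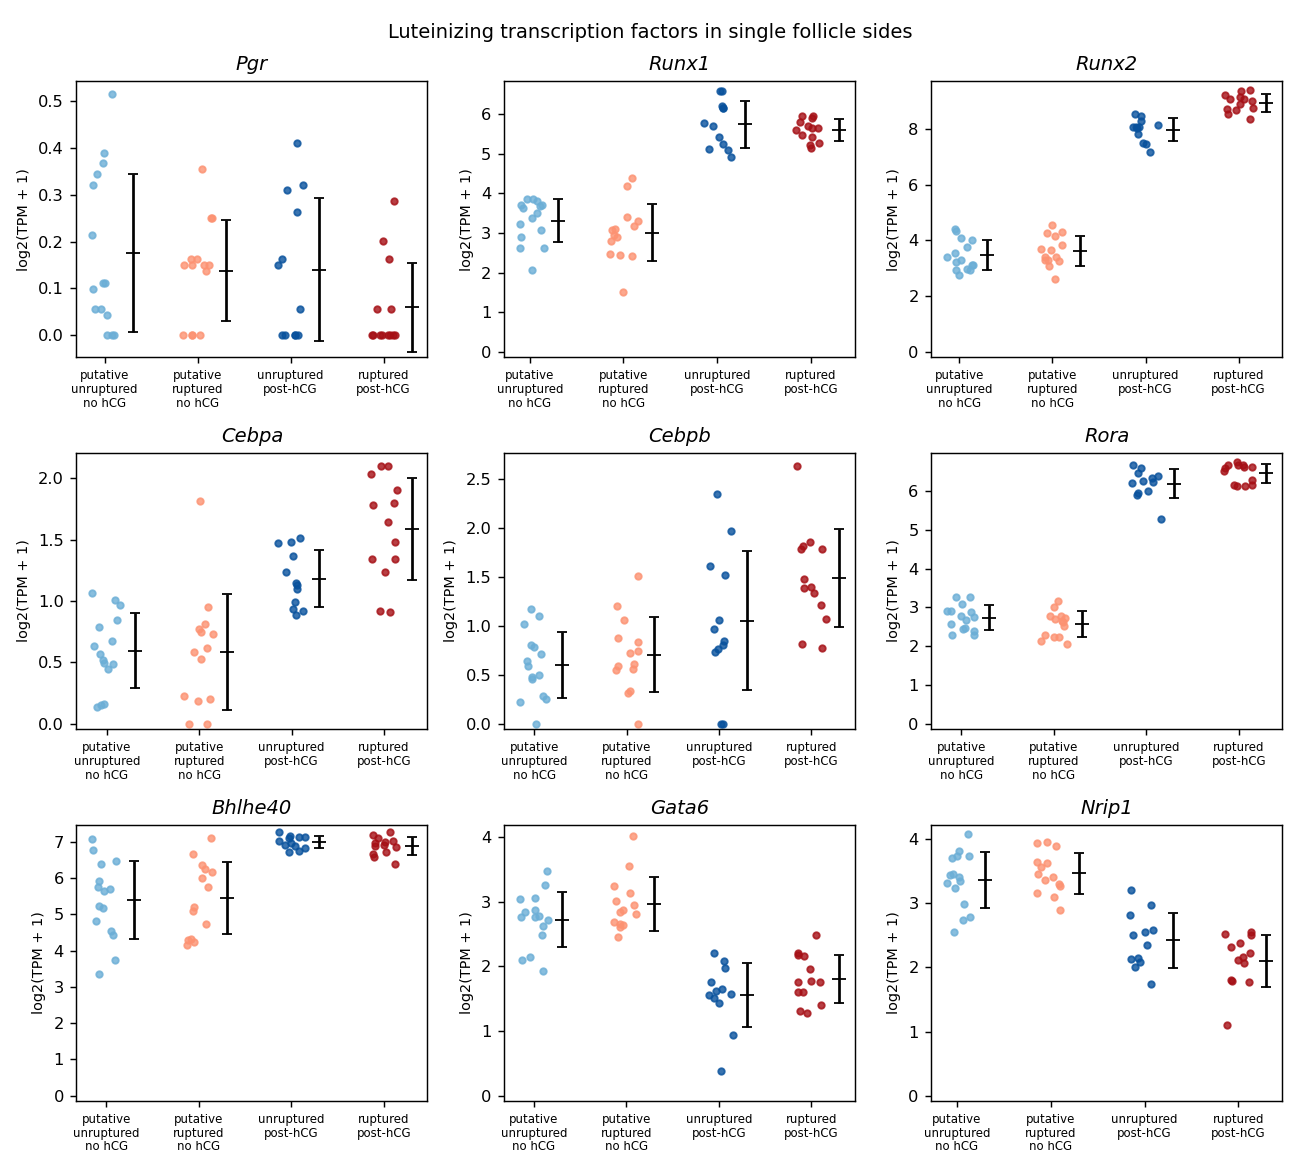
Each panel plots log2(TPM + 1) of one gene, and each point is one library of the group named on the horizontal axis (n = 15, 14, 12 and 13 from left to right). The black bar beside the points is the mean with its SD. For *Runx1*, *Runx2* and *Rora* all points post-hCG lie above all points without hCG of the same side, and for *Pgr* all points lie below 1.

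To ask what hCG did to these genes, post-hCG libraries were compared with libraries without hCG of the same side by edgeR. *Runx2*, *Rora*, *Runx1* and *Bhlhe40* rose on both sides, and *Gata6* and *Nrip1* fell on both. *Pgr*, *Cebpa* and *Cebpb* did not pass the expression filter in these fits. On the unruptured side 4 of 6 tested genes were thus higher and 2 lower, where 25.4% and 27.7% of the 9320 genes tested were higher and lower (53.1% in all). On the ruptured side the counts were the same, where 29.7% were higher and 30.4% lower (60.1% in all) of 8531. The median log2FC was 1.86 over the 6 genes and −0.03 over all genes on the unruptured side, and 2.11 and −0.00 on the ruptured side. Both comparisons of sides below use the same libraries as these, so the 4 are not independent.

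*Runx2* showed the largest change of the 9. Its level was 5.85 to 20.3 TPM (median 8.85) on the putative unruptured side and 142 to 370 TPM (median 265) on the unruptured side post-hCG. Where rupture was expected it was 5.14 to 22.4 TPM (median 10.7), and on the ruptured side post-hCG 325 to 661 TPM (median 503). The groups with and without hCG did not overlap on either side, and the same held, with the higher level post-hCG, for 3.82% of all genes tested on the unruptured side and for 3.43% on the ruptured side. The log2FC was 4.16 (SE 0.17, FDR 7.00e-19) on the unruptured side, or 17.9-fold, and 4.99 (SE 0.16, FDR 4.30e-22) on the ruptured side, or 31.8-fold. It ranked 31st of 9320 and 26th of 8531 genes from the highest log2FC.

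*Rora*, the nuclear receptor, came next. Without hCG it was at 3.85 to 8.60 TPM (median 5.73) and 3.13 to 8.03 TPM (median 5.22) on the putative unruptured and putative ruptured sides. Post-hCG it was at 37.7 to 102 TPM (median 75.0) on the unruptured side and 68.4 to 106 TPM (median 94.7) on the ruptured side. Again no library without hCG reached the lowest one post-hCG of its side. The log2FC was 3.50 (SE 0.14, FDR 1.44e-19) and 4.10 (SE 0.14, FDR 1.19e-21), or 11.3-fold and 17.1-fold, on the unruptured and the ruptured side. *Runx1* was at 3.20 to 13.6 TPM (median 10.4) and 1.86 to 20.0 TPM (median 7.06) without hCG on these sides in turn. Post-hCG it was at 29 to 94.6 TPM (median 52.3) and 34.6 to 60.7 TPM (median 48.7), with no overlap with the group without hCG on either side. It rose by a log2FC of 2.44 (SE 0.19, FDR 1.79e-12) and 2.79 (SE 0.20, FDR 9.41e-14), or 5.41-fold and 6.90-fold.

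*Bhlhe40* differed from these 3 in its spread without hCG. It ran between 9.29 and 133 TPM on the putative unruptured side and between 16.8 and 137 TPM on the other, so that the highest library held 14.3 and 8.15 times the lowest. Post-hCG it was confined to 104 to 155 TPM (median 126) and 83.6 to 154 TPM (median 121), or 1.48 and 1.84 times from lowest to highest. The groups overlapped, since 7 of 12 unruptured and 11 of 13 ruptured libraries post-hCG lay within the range reached without hCG. All of them were nevertheless above the median without hCG of their side, and the log2FC was 1.28 (SE 0.26, FDR 9.65e-05) and 1.44 (SE 0.24, FDR 5.08e-06). Among the libraries without hCG, the coefficient of variation of *Bhlhe40* was 69.1% and 68.4%, against 12.2% and 16.7% post-hCG.

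*Gata6*, the steroidogenic GATA factor, fell from 2.82 to 10.1 TPM (median 5.81) to 0.3 to 3.61 TPM (median 2.02) on the unruptured side. On the ruptured side it fell from 4.47 to 15.1 TPM (median 6.24) to 1.43 to 4.57 TPM (median 2.39). Of the post-hCG libraries, 9 of 12 and 12 of 13 lay below the lowest without hCG. The log2FC was −1.56 (SE 0.19, FDR 4.25e-08) and −1.28 (SE 0.15, FDR 4.07e-09). *Nrip1*, the coregulator, was at 4.89 to 15.9 TPM (median 9.62) and 6.47 to 14.5 TPM (median 9.82) without hCG. Post-hCG it was at 2.35 to 8.24 TPM (median 4.42) on the unruptured side, where the groups overlapped, and at 1.14 to 4.87 TPM (median 3.47) on the ruptured side, where they did not, as for 4.34% of all genes tested there in this direction. Its log2FC was −1.44 (SE 0.14, FDR 1.78e-10) and −1.61 (SE 0.11, FDR 5.03e-14).

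*Cebpa* and *Cebpb*, together needed for luteinization, were near the limit of detection. *Cebpa* had medians of 4, 3, 8 and 16 counts on the putative unruptured, putative ruptured, unruptured and ruptured sides. In TPM its medians were 0.480, 0.515, 1.20 and 2.12 in the same order, and all 25 libraries post-hCG lay above the median without hCG of their side. In the fit without an expression filter its log2FC was 1.30 (SE 0.28, FDR 0.000282) on the unruptured side and 2.12 (SE 0.31, FDR 5.82e-07) on the ruptured side. *Cebpb* had medians of 3 and 2.5 counts without hCG and of 3.5 and 7 counts post-hCG. Its TPM medians were 0.500, 0.590, 0.875 and 1.63, and 2 of the 12 unruptured libraries post-hCG held no count of it. The fit without a filter gave 1.19 (SE 0.42, FDR 0.0288) and 1.63 (SE 0.32, FDR 5.66e-05). *Pgr* had 39, 19, 14 and 11 counts in all over the 4 groups in this order, with at most 8 in any library, and was at 0 in 3 of 15, 4 of 14, 5 of 12 and 8 of 13 libraries. Unfiltered, the log2FC of *Pgr* was −0.79 (SE 0.56, FDR 0.307) and −0.59 (SE 0.60, FDR 0.455). A change of *Pgr* was thus not detectable at this depth, and 12 h was the only time sampled.

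**Figure D2:**
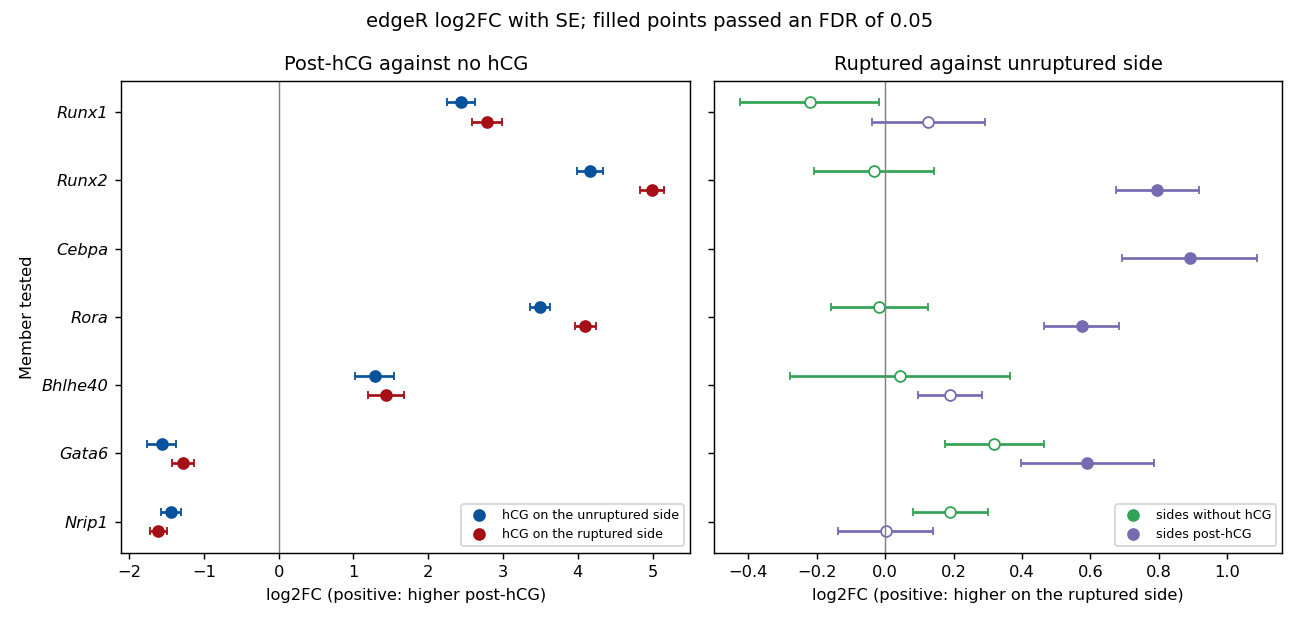
Points are log2FC by edgeR for the genes that passed the expression filter, with SE, filled where the FDR was below 0.05. On the left, libraries post-hCG are compared with those without hCG on each side, from 4.99 for *Runx2* to −1.61 for *Nrip1*. On the right, ruptured sides are compared with unruptured sides on a narrower scale, and filled points are *Runx2*, *Cebpa*, *Rora* and *Gata6* post-hCG only.

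These 12 calls held under each of the alternatives tried, although the scale of the counts moved with the method. Scaled by library totals alone, the median gene shifted to −0.25 and −0.33 and the share of higher genes among those called fell from 47.8% to 27.5% on the unruptured side and from 49.4% to 24.5% on the ruptured side. On log2(TPM + 1) the median gene was at 0.04 on the unruptured and −0.14 on the ruptured side, and 57.6% and 34.3% of calls were higher. Relative to the median gene, the log2FC of *Runx2* was 4.17 and 4.97 by library totals and 4.46 and 5.44 on log2(TPM + 1). That of *Nrip1* was −1.42 and −1.61 by library totals, and −0.97 and −1.22 on log2(TPM + 1). Markers of cell types moved with the media too: summed theca markers had medians of 505 TPM without hCG and 338 TPM post-hCG on the unruptured side, and of 38.7 and 7.45 TPM on the ruptured side. Summed granulosa markers were at 2849 and 1776 TPM and at 10883 and 1791 TPM. The granulosa markers did not all move alike: 3 rose and 4 fell of 8 tested on the unruptured side, and 1 rose and 5 fell of 8 on the ruptured side. Of all genes tested, 53.1% and 60.1% were called on these sides. The part of the theca and granulosa markers in these results was not tested.

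The putative sides without hCG were compared to ask whether the factors differed before the ovulatory stimulus. None of the 6 genes tested passed an FDR of 0.05, where 17.8% of 9063 genes did by edgeR. 1 of the 6, *Gata6*, had an unadjusted p below 0.05 (log2FC 0.32, SE 0.15, FDR 0.132), and neither DESeq2 nor limma on TPM called any. The differences were −0.22 (SE 0.20) for *Runx1*, −0.03 (SE 0.17) for *Runx2*, −0.02 (SE 0.14) for *Rora*, 0.04 (SE 0.32) for *Bhlhe40* and 0.19 (SE 0.11, FDR 0.243) for *Nrip1*. The sides overlapped for all 9 genes, as they did for all but 0.0331% of those tested. Summed granulosa markers differed between these sides, with ranges of 944 to 5809 TPM on the putative unruptured and 3630 to 16381 TPM on the putative ruptured side. Of 9 listed granulosa markers 8 were tested, and 7 of these were higher on the putative ruptured side. Of 8 listed theca markers 7 were tested, and 5 of these were lower there. A marker can pass the filter through one side alone, so these counts do not stand for the whole lists. By library totals alone, 39.3% of all calls were higher, against 49.7%.

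Post-hCG, *Cebpa*, *Runx2*, *Gata6* and *Rora* were higher on the ruptured side, and no gene of the 9 was lower. These were 4 of 7 tested, where 21.4% of 8585 genes passed in either direction, 47.0% of them higher on the ruptured side. *Cebpa* had medians of 8 counts on the unruptured and 16 on the ruptured side, and the minimum count of the filter was 10. It can therefore have passed the filter through the ruptured side, where it was higher, which limits the count of 4. The ranges of the sides overlapped for each of the 9, as they did for all but 1.18% of the genes tested. The median log2FC was 0.57 over the 7 genes and 0.01 over all genes. *Runx2*, at 142 to 370 TPM on the unruptured and 325 to 661 TPM on the ruptured side, showed the clearest separation: 11 of 13 ruptured libraries lay above the highest unruptured library. Its log2FC was 0.79 (SE 0.12, FDR 1.20e-05), or 1.73-fold. *Rora* was higher by 0.57 (SE 0.11, FDR 0.000219), or 1.49-fold, but only 1 of 13 ruptured libraries exceeded the highest unruptured one. *Cebpa* ran from 0.850 to 1.85 TPM on the unruptured and from 0.880 to 3.29 TPM on the ruptured side, with 7 of 13 ruptured libraries above the highest unruptured one, and its log2FC was 0.89 (SE 0.20, FDR 0.00110).

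*Gata6* was higher by 0.59 (SE 0.19, FDR 0.0271), with 1 of 13 ruptured libraries above the range of the unruptured side. Its call was lost without replicate 4 of the unruptured side (0.52, FDR 0.0502) and without replicate 3 of the ruptured side (0.54, FDR 0.0520), whereas those of the other 3 genes held without any one library. *Bhlhe40* (0.19, SE 0.09, FDR 0.150), *Runx1* (0.13, SE 0.17, FDR 0.647) and *Nrip1* (0.00, SE 0.14, FDR 0.995) did not pass. *Runx1* was nonetheless more spread on the unruptured side, with a coefficient of variation of 41.0% against 18.7% on the ruptured side. That spread went with the label letter: the unruptured medians were 39.4 TPM in the 8 libraries of letter B and 83.4 TPM in the 4 of letter C. In the ruptured libraries of letters C and D they were 54.7 and 45.6 TPM. Side and letter cannot be told apart in this spread. *Cebpb* was not tested, and unfiltered counts gave 0.80 (SE 0.35, FDR 0.160) for it.

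The calls between the sides post-hCG depended on the libraries and the scale. Within letter C, the 4 unruptured and 5 ruptured libraries gave 0.39 (SE 0.15, FDR 0.131) for *Runx2*, 0.22 (SE 0.16, FDR 0.438) for *Rora*, 0.66 (SE 0.30, FDR 0.192) for *Cebpa* and 0.35 (SE 0.36, FDR 0.618) for *Gata6*, so none of the 4 passed. *Runx2* was at 222 to 370 TPM in these unruptured and at 409 to 568 TPM in these ruptured libraries. *Rora* had a median of 67.9 TPM in the unruptured libraries of letter B and of 90.9 TPM in those of letter C, and of 101 TPM and 80.1 TPM in the ruptured libraries of letters C and D. On log2(TPM + 1), *Runx2* (0.97, FDR 1.72e-05) and *Cebpa* (0.40, FDR 0.0351) were called by limma, and *Rora* (0.27, FDR 0.139) and *Gata6* (0.25, FDR 0.310) were not. On that scale the median gene was at −0.21 and 8.50% of all calls were higher on the ruptured side. By library totals alone, the median gene was at −0.14 and 17.8% of calls were higher. Relative to the median gene, *Rora* was at 0.56 and 0.48 and *Gata6* at 0.58 and 0.46 by library totals and on log2(TPM + 1).

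The sides post-hCG also differed in theca markers, with summed levels of 74.0 to 1291 TPM on the unruptured and 3.79 to 52.6 TPM on the ruptured side. Of 8 listed theca markers 5 were tested, and 4 of these were lower on the ruptured side, where 21.4% of all genes were called in either direction. A marker can pass the filter through the unruptured group alone, so the count does not stand for all 8. *Cyp17a1* was at 0 in all 13 ruptured and in 8 of 12 unruptured libraries, and *Insl3* was at 0 in 11 of 13 ruptured libraries. Summed granulosa markers had medians of 1776 and 1791 TPM. Of 9 listed granulosa markers, however, 5 were tested, and 3 of these were higher and 0 lower on the ruptured side. The median log2FC of the 5 tested markers was 0.63, against 0.01 for all genes. Neither value stands for all 9. The part of theca and granulosa markers in the differences of the 4 genes was not tested.

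The interaction of side and hCG asked whether hCG changed a gene more on one side than on the other. It passed for *Runx2* and *Rora*, 2 of 7 genes tested, where 8.91% of 10013 genes passed. The rise of *Runx2* was larger on the ruptured side by 0.83 (SE 0.22, FDR 0.0119) and that of *Rora* by 0.60 (SE 0.19, FDR 0.0319). For *Cebpa* the difference was 0.81 (SE 0.43, FDR 0.262), for *Runx1* 0.35 (SE 0.28, FDR 0.490), for *Gata6* 0.28 (SE 0.25, FDR 0.553), for *Bhlhe40* 0.15 (SE 0.37, FDR 0.859) and for *Nrip1* −0.18 (SE 0.18, FDR 0.593). *Runx2* passed without any one of the 54 libraries, while *Rora* was lost without replicate 5 of the unruptured side (0.53, FDR 0.0525) or replicate 8 of the putative unruptured side (0.54, FDR 0.0522). *Rora* was also lost by library totals (0.50, FDR 0.0651), on log2(TPM + 1) (0.44, FDR 0.126) and on log2(TPM + 0.1) (0.47, FDR 0.135), and *Runx2* on log2(TPM + 0.1) (0.79, FDR 0.0580). On log2(TPM + 1) the median gene was at −0.19 and 10.9% of calls were positive, against 47.8% by edgeR with TMM and 25.8% by library totals.

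Partners and relatives of the 9 genes were taken as a list of 20. On the unruptured side hCG raised 1 and lowered 6 of 15 tested, with a median log2FC of −0.22, a share of calls no higher than the 53.1% of all genes. *Gata4*, the partner of *Gata6*, fell by 1.01 (SE 0.14), and *Zfpm2*, a cofactor of GATA factors, fell by 1.32 (SE 0.21). *Cbfb*, the partner of the RUNX factors, fell by 1.06 (SE 0.13, FDR 6.31e-08). On the ruptured side 3 rose and 4 fell of 14 tested, where 60.1% of all genes were called, among them *Zfpm2* (−1.67), *Gata4* (−0.78) and *Ncoa2* (−0.46), a coactivator of nuclear receptors. *Cbfb* was the only one of 15 to pass the interaction (0.82, SE 0.19, FDR 0.00286) and the only one of 13 higher on the ruptured side post-hCG (0.57, SE 0.15, FDR 0.00693), as *Runx2* was. Of all genes tested, 8.91% passed the interaction and 21.4% were called between the sides post-hCG. The median log2FC of the list on the ruptured side was −0.16. Between the sides without hCG, 1 of 14 was higher and 2 were lower, namely *Ncoa1* (0.53), *Pgrmc1* (−0.64) and *Cebpd* (−1.14). The share called was near the 17.8% of all genes in that comparison.

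*Rora* and *Bhlhe40* act on the circadian clock, in which CLOCK and ARNTL drive the *Per*, *Cry* and *Nr1d* genes and are held back by their products. Of 14 clock genes, 5 rose and 5 fell of 12 tested with hCG on the unruptured side, and 5 rose and 5 fell of 10 tested on the ruptured side. Of all genes tested, 25.4% rose and 27.7% fell on the unruptured side and 29.7% rose and 30.4% fell on the ruptured side. *Arntl*, which RORA activates and NR1D1 and NR1D2 repress, rose by a log2FC of 2.22 (SE 0.12) and 2.66 (SE 0.14). *Nr1d2* changed by −2.06 (SE 0.18) and −2.14 (SE 0.20), and the repressor *Per3* by −2.38 (SE 0.34) and −3.25 (SE 0.30), whereas *Per1* rose by 2.17 (SE 0.18) and 2.30 (SE 0.12). *Nfil3*, a repressor at D-boxes, rose by 1.74 and 1.29, and *Tef*, an activator at the same elements, changed by −1.54 and −1.72. The median log2FC of the list was −0.11 and 0.06, since the genes moved in both directions. Between the sides 1 of 12 was higher and 1 lower without hCG, *Cry2* (0.94) and *Dbp* (−0.90), and 1 of 9 was higher post-hCG, *Per1* (0.27). Of all genes tested, 17.8% were called between the sides without hCG and 21.4% post-hCG, so the share of clock genes called was no higher.

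**Figure D3:**
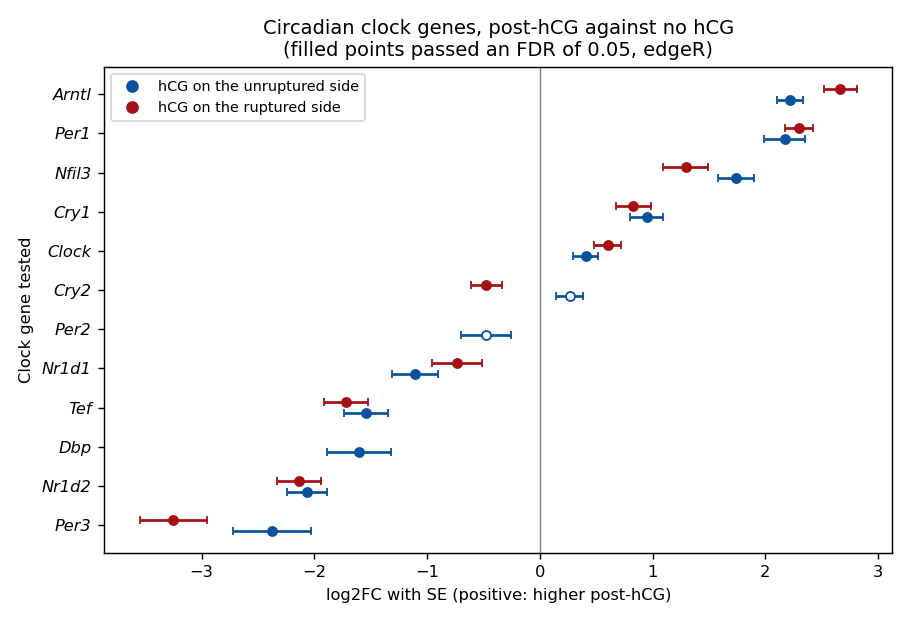
Points are log2FC with SE by edgeR of circadian clock genes post-hCG against no hCG, on the unruptured side (blue) and the ruptured side (red), filled where the FDR was below 0.05. *Arntl* and *Per1* are at 2.17 or more on both sides, and *Per3* and *Nr1d2* at −2.06 or less on both.

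*Pgr* itself was barely detected, and 6 of 6 tested targets of the progesterone receptor rose with hCG on the unruptured side and 5 of 6 on the ruptured side, with medians of 3.43 and 3.81, where 25.4% and 29.7% of all genes rose. *Adamts1*, a protease of the follicle wall, rose by 4.46 (SE 0.20) and 4.21 (SE 0.19), the peptide *Adcyap1* by 7.89 (SE 0.28) and 7.01 (SE 0.40), and the vasoconstrictor *Edn2* by 7.69 (SE 0.46) and 8.65 (SE 0.67). *Ctsl*, a cathepsin, rose by 2.40 (SE 0.24) and 2.35 (SE 0.16). Only 6 of 10 listed targets could be tested, and a gene seen only post-hCG passes the filter through that group, so the count does not stand for all 10. Between the sides post-hCG 3 of 8 were higher, *Prkg2* (0.92), *Adamts1* (0.92) and *Pparg* (0.67), and 1 was lower, *Adcyap1* (−0.67). Without hCG, *Adamts1* (1.19) and *Pparg* (1.86) were higher on the putative ruptured side, of 3 tested. Of all genes tested, 21.4% were called in either direction between the sides post-hCG and 17.8% without hCG.

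EGF-like ligands and cumulus matrix genes, which need NRIP1, rose in 5 of 5 tested on the unruptured side, with a median of 1.72, where 25.4% of all genes rose and *Nrip1* itself fell. They were *Ereg* (4.0, SE 0.38), *Areg* (3.07, SE 0.43), *Ptgs2* (1.72, SE 0.32), *Tnfaip6* (1.60, SE 0.31) and *Btc* (1.5, SE 0.21). The list has 7 genes, and a gene can pass the filter through the post-hCG group alone, so the count does not stand for all 7. On the ruptured side, where 29.7% of all genes rose, 1 of 4 did, *Ereg* (3.00, SE 0.41), and the median was 0.70. Without hCG 4 of 4 tested were higher on the putative ruptured side, among them *Has2* (1.92) and *Ptgs2* (1.71). In that comparison 17.8% of all genes were called in either direction. A gene can pass the filter through the putative ruptured side alone, so this count does not stand for all 7 either. *Has2* and *Tnfaip6* are also among the 4 cumulus markers. The sums of these markers reached 24.3 TPM on the putative unruptured and 97.6 TPM on the putative ruptured side. The part of cumulus markers in this difference was not tested. Post-hCG *Ptgs2* (0.83) was higher and *Ereg* (−1.22) lower on the ruptured side, of 4 tested, where 21.4% of all genes were called.

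Genes of luteal steroid synthesis and luteal receptors rose in 11 of 12 tested on the unruptured side (median 2.97) and in 10 of 12 on the ruptured side (median 3.41), where 25.4% and 29.7% of all genes rose. They included the electron carriers *Fdx1* (3.85 and 4.07) and *Fdxr* (3.16 and 3.48), the prolactin receptor *Prlr* (3.10 and 3.33) and *Cyp11a1* (3.42 and 5.48), the first enzyme of steroid synthesis. Between the sides post-hCG, *Lhcgr* (1.28), *Fdxr* (0.61) and *Hsd3b1* (0.56) were higher and *Star* (−0.95) lower on the ruptured side, of 12 tested. Without hCG 4 were higher and 2 lower of 12. Of all genes tested, 21.4% were called in either direction between the sides post-hCG and 17.8% without hCG. Of 15 other factors of luteinization, 3 rose and 4 fell of 13 on the unruptured side and 4 rose and 7 fell of 13 on the ruptured side, with medians of 0.16 and −0.45. Of all genes, 53.1% and 60.1% were called on these sides, so the number called on the unruptured side was near that of all genes. *Nr5a2*, a nuclear receptor needed for luteinization, rose by 2.12 and 1.56, and *Foxo1*, a factor of growing follicles, changed by −2.23 and −2.32. Between the sides 4 of these factors were higher and 2 lower both without hCG (of 13) and post-hCG (of 12), where 17.8% and 21.4% of all genes were called. *Nr5a2* and *Foxo1* were higher on the ruptured side in both (1.10 and 0.53, and 1.04 and 0.93).

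To see which of the 9 varied together from library to library, group means of log2(TPM + 1) were taken off and correlations were computed over the 54 libraries. *Pgr* was left out because its mean was below 1 TPM. These values describe libraries that share depth, scaling and cell content, and carry no test. The median r over the 28 pairs of the other 8 was 0.35, 17 pairs were above 0.3, and none was below −0.3. *Runx1*, *Runx2* and *Bhlhe40* formed the closest group, with r of 0.66 for *Runx1* with *Bhlhe40*, 0.61 for *Runx1* with *Runx2* and 0.59 for *Runx2* with *Bhlhe40*. *Runx1* with *Bhlhe40* was at 0.68, 0.84, 0.57 and 0.39 within the putative unruptured, putative ruptured, unruptured and ruptured side. *Gata6* and *Nrip1*, which both fell with hCG, were at 0.51.

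*Rora*, which rose with *Runx2* in the group means, followed it little within groups, with r = 0.12 over all libraries. The value was −0.11 and −0.27 on the sides without hCG, 0.86 on the unruptured side post-hCG and 0.38 on the ruptured side. On the unruptured side post-hCG the libraries of letters B and C differed in the level of *Rora*, as given above. Correlations with total counts were at most 0.17 in size. Those with summed granulosa markers reached 0.43 for *Nrip1* and 0.28 for *Rora*, and those with summed theca markers 0.31 for *Cebpb* and −0.29 for *Nrip1*.

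**Figure D4:**
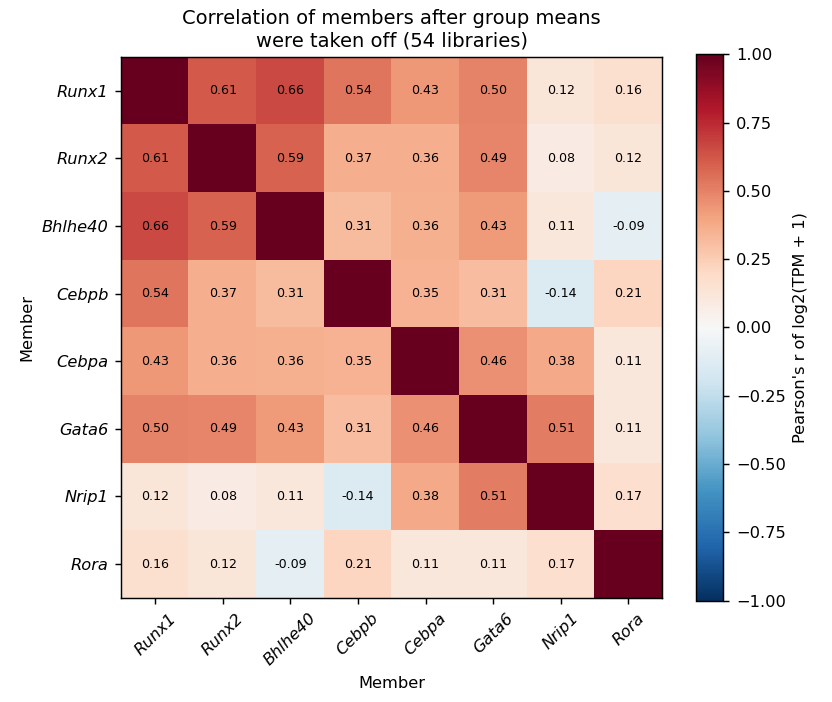
Each cell gives Pearson's r of log2(TPM + 1) between 2 genes over 54 libraries after group means were taken off, from −1 (blue) to 1 (red). The darkest cells off the diagonal are *Runx1*, *Runx2* and *Bhlhe40* with each other (0.59 to 0.66), while the row of *Rora* stays between −0.09 and 0.21.

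The same measure over 9880 other genes that averaged 1 TPM or more gave the genes most like each of the 8. For *Bhlhe40* they were *Junb* (r = 0.83), *Ier3* (0.83) and *Sdc1* (0.82), the first being a subunit of AP-1. For *Runx1* they were *Pakap* (0.80), *Acsl4* (0.79) and *Akap2* (0.78), of which *Pakap* and *Akap2* overlap and may share reads. For *Runx2* they were *Id2* (0.73), *Tnfaip6* (0.68) and *Hipk1* (0.67). *Tnfaip6* is among the cumulus matrix genes above, and *Id2* is an inhibitor of bHLH factors. For *Gata6* they were *Tmem2* (0.75), *Gltscr1* (0.68) and *Tle3* (0.67), and for *Nrip1* *Rbm15* (0.73), *Nub1* (0.71) and *CH36-200G6.4* (0.71). For *Rora* the values were lowest, with *Cpeb4* (0.60), *Hipk2* (0.60) and *Srgap3* (0.59). For *Cebpa* they were *RP24-482A24.5* (0.66), *Irf2bp2* (0.64) and *Mgat2* (0.64), and for *Cebpb* *Map7d1* (0.67), *Mef2d* (0.64) and *Bloc1s4* (0.63), both from few counts.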

How the data were processed

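Single follicle sides were sequenced after Smart-Seq2 amplification. Reads were aligned by the authors to GRCm38 with HISAT2, and ComBat-seq served to correct for batches. The authors deposited estimated counts, 72.2% of the non-zero ones whole, and TPM values that summed to 585981 to 678417 per library. The counting program, and whether the deposited tables precede the batch correction, are not given in the sources used here. Strand was not stated, so reads of overlapping genes cannot be told apart.

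After rounding, genes passed edgeR's filter with 10 as its minimum count and 15 as its minimum total. TMM scaling was used, and tests were made by edgeR 4.0.16 in R 4.3.3 (quasi-likelihood, two-sided, Benjamini-Hochberg FDR of 0.05 over all genes tested) in 5 comparisons: the sides without hCG and post-hCG, hCG on each side, and their interaction. Each fit used the libraries of its own groups. Alternatives were DESeq2 1.42.0, scaling by RLE or by library totals alone, no filter, a mean of 20 counts, one fit of all 4 groups, limma 3.58.1 on log2(TPM + 1) or log2(TPM + 0.1), the replicate number as a block, thinned counts and libraries of one label letter. Refits without single libraries were chosen after seeing the data. The code was tested on simulated data.

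The 9 genes, the lists and the tests were chosen with earlier results of these data known. The genes named are the 9, the 3 most correlated with each, and up to 4 of the lowest FDR per list and comparison. Some genes of the lists are counted but not reported by name. *Tef* was named after its values were seen. The authors' single-cell data and images were not analysed here.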

Additional observations from a re-analysis of the deposited data

Results flagged for a closer look

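The effect of hCG differed between the sides, by the interaction in edgeR, for *Runx2* (0.83, positive where the change was more upward on the ruptured side) and *Rora* (0.60), and for 10 named genes of the lists. Of these, *Cbfb* (0.82), *Prkg2* (1.96) and *Cyp11a1* (2.07) had the higher log2FC on the ruptured side. This need not be a rise, since *Cbfb* was at −1.06 on the unruptured and −0.24 on the ruptured side. *Fosl2* (−0.70), *Hif1a* (−1.06), *Sp1* (−0.61), *Pparg* (−1.18), *Areg* (−2.26), *Has2* (−3.59) and *Cry2* (−0.74) had the lower log2FC there. This need not be a fall, since *Pparg* was at 1.45 on the unruptured and 0.28 on the ruptured side. In the fits of hCG on each side, *Has2* was not tested and *Areg* was tested on the unruptured side only. Of all genes tested, 8.91% passed.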

How the results depend on the processing

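Of 347 values of log2FC recomputed for the 9 genes under the alternatives, 314 kept their direction and their side of the threshold, 14 kept the direction but no longer passed, and 19, none of them called in the main fit or in the alternative, changed sign. Every call for hCG on either side held. Totals of 1497071 to 2834734 counts left *Pgr*, *Cebpa* and *Cebpb* with few counts. The median gene and the share of higher calls moved with the scaling, as given with each comparison. The cause of the following changes was not tested.

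Within one label letter, which leaves 4 or 5 libraries per side, 3 genes of the whole table passed between the sides without hCG (1613 in the main fit) and 748 post-hCG (1833), and 0 of the 9 genes passed post-hCG. Without hCG, *Runx1* was then at 0.45 and *Runx2* at 0.35, and post-hCG *Runx1* at −0.47 and *Bhlhe40* at −0.10. On log2(TPM + 1) and log2(TPM + 0.1), limma called 1045 and 1013 genes between the sides without hCG and 2 and 2 of the 9 post-hCG, and 1 and 0 passed the interaction, where *Runx2* was at 0.79 (FDR 0.0580) on the second scale. On the same scales *Runx2* was at 0.17 and 0.18 between the sides without hCG. Post-hCG *Runx1* was at −0.15 and −0.15, *Bhlhe40* at −0.11 and −0.11 and *Nrip1* at −0.32 and −0.40, and the interaction of *Bhlhe40* was at −0.16 and −0.16. By library totals alone 1 gene passed the interaction (*Rora* at FDR 0.0651), *Gata6* was lost post-hCG (0.44, FDR 0.142), and *Runx1* (−0.024) and *Nrip1* (−0.15) changed sign there. Thinned to the smallest total, *Runx2* was at 0.019 without hCG, *Nrip1* at −0.044 post-hCG, and *Gata6* lost its call (FDR 0.0944). Without single libraries, 1 to 2 genes passed the interaction, and *Nrip1* between the sides post-hCG ran from −0.041 to 0.089.

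On log2 CPM in place of log2(TPM + 1), differences of group means moved by more than 1 SD for *Pgr* (−0.19 between the sides without hCG, −0.33 and −0.28 with hCG on the unruptured and ruptured side), *Cebpa* (0.77 between the sides post-hCG, 1.06 and 1.92 with hCG), *Rora* (0.61 between the sides post-hCG), *Bhlhe40* (0.20 there) and *Nrip1* (−1.42 with hCG on the unruptured side).

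Deviations of same-numbered libraries correlated above 0.1 in 2 of 14, 3 of 12, 1 of 12 and 3 of 13 pairs in the 4 comparisons. In these, 2, 3, 1 and 3 libraries correlated best with their own number. With the replicate number as a block, no call of the 9 genes changed, and *Bhlhe40* between the sides without hCG was at −0.0027. The labels do not say that equal numbers mark one follicle, so neither result can show whether sides were paired.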

Other observations

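The ratio of TPM to CPM (counts scaled to a fixed library total) differed between the groups for *Runx2* more than for the others. Relative to the median gene it was 1.06 and 1.22 without hCG and 1.35 and 1.79 post-hCG, the unruptured side first in each case. For *Gata6* it was 0.61, 0.60, 0.61 and 0.60 in the same order, and for *Cebpb* 1.51, 1.42, 1.47 and 1.47. The log2FC of *Runx2* between the sides post-hCG, relative to the median gene, was 0.78 on counts and 1.18 on log2(TPM + 1).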
